A study of Mus musculus with 6 samples.

Results

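The genes of MHC class II antigen presentation were followed across 3 genotypes in mouse colon: the chains of the class II molecule (H2-Aa, H2-Ab1, H2-Eb1), the peptide-loading proteins (H2-DMa, H2-DMb1, H2-DMb2, H2-Oa, H2-Ob), the invariant chain (Cd74) and the class II transactivator (Ciita). Every probe set that the array's annotation assigns to one of these 10 genes was taken, which gave 22 of 45101 probe sets. Of the 22, 19 carried 1 gene symbol and 3 carried a second one: 2 were shared by H2-DMb1 and H2-DMb2, and 1 by H2-Ob and Gm20506. H2-DMb1 was therefore measured only together with H2-DMb2, and the other 9 genes each had at least 1 probe set of their own.

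All mice were C57BL/6, 6 to 8 weeks old, and all had received ethanol by rectal injection 24 h before the colon was taken. There were 2 arrays for each of 3 genotypes, namely wild type (abbreviated WT), the knockout of GPR41 (GPR41 KO) and that of GPR43 (GPR43 KO), and colon without ethanol was not analysed here. Ffar3 encodes GPR41 and Ffar2 encodes GPR43, both of them receptors that sense short-chain fatty acids. The deleted part of each gene and the origin of the lines are not given in the sources used here. Nothing in the labels says whether both arrays of a genotype stand for different mice, so the p-values measure only the spread between arrays, which may be technical.

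MHC class II molecules are pairs of an alpha and a beta chain that show peptides from endocytosed proteins to CD4+ T cells. Dendritic cells, macrophages and B cells carry them, and intestinal epithelial cells also make them when exposed to interferon gamma. The invariant chain holds the new molecule until it reaches the endosome, H2-DM then exchanges the remaining invariant chain fragment for a peptide, and H2-O tempers H2-DM, mainly in B cells. Transcription rests on CIITA, a co-activator without a DNA-binding domain of its own, which docks on RFX, CREB and NF-Y proteins bound to the X and Y boxes of the class II promoters. Mice with the C57BL/6 haplotype lack I-E at the cell surface because they make no I-E alpha chain (H2-Ea), although the beta chain gene H2-Eb1 is transcribed.

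The deposited values are MAS5 signals on a linear scale with the same trimmed mean in every array (500.003), so a value shows relative RNA level for 1 probe set and levels of different probe sets were not set against each other. The library labelled GPR43 KO replicate 1 went against its label: Ffar2 signal was 1598 there and 189 in GPR43 KO replicate 2, with 1194 and 1118 in WT arrays and 1857 and 1933 in GPR41 KO arrays. In what follows GPR43 KO stands for the arrays labelled so, and the class II genes tested and the genes called in that group are also given without that library. For gene lists, the median in GPR43 KO replicate 2 alone stands for the value without it. No probe set was annotated to Ffar3, and the labels of the GPR41 KO arrays were therefore not checked. Of 11 tested neutrophil markers, all 11 fell in each KO group at an adjusted p under 0.05 (limma, described below). Among all 10916 genes tested, 4.99% passed for GPR41 KO and 3.96% for GPR43 KO, counting both directions. The marker medians against WT (log2) were -5.25 for GPR41 KO and -4.89 for GPR43 KO. For GPR43 KO replicate 2 alone the median was -5.22. The summed signals of the 17 neutrophil markers with a probe set were 80035 and 145470 in WT and 1413 to 3660 in the arrays labelled KO. The colon epithelium markers gave signals of at least 1106 in every array, and all 13 were tested.

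The promoters come first, because CIITA acts through proteins on the X and Y boxes. RefSeq promoter windows (250 bases before to 50 bases after a start site, build GRCm38.p6) matched 7 of the 10 genes, with 8 windows in all. H2-Ab1, Cd74 and Ciita had no window, so their boxes were not looked at. The windows below are 75 bases long, run 5′ to 3′ on the strand of the gene, and start 60 bases before the Y box. Capitals mark the X1 core (AACNNATG) and the Y box (TGATTGG), and in H2-Aa the Y box and an X2 site (TGACGTCA). The H2-Eb1 window lies at chr17:34305746-34305820 (plus strand), H2-DMb1 at chr17:34153068-34153142 (plus), H2-DMb2 at chr17:34145097-34145171 (plus), H2-Ob at chr17:34238786-34238860 (plus), H2-Aa at chr17:34287859-34287933 (minus) and H2-Oa at chr17:34092274-34092348 (plus).
H2-Eb1: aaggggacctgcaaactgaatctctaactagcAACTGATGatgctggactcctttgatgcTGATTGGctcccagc
H2-DMb1: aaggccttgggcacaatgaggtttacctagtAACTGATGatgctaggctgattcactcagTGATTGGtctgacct
H2-DMb2: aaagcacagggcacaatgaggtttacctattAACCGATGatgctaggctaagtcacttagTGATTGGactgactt
H2-Ob: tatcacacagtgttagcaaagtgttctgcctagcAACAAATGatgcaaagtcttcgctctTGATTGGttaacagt
H2-Aa: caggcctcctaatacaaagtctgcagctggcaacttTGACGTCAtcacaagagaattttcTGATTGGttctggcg
H2-Oa: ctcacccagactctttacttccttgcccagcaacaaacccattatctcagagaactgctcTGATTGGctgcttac
The first 4 windows hold an X1 core followed by a Y box, whose start lies 26 (H2-Ob), 28 (H2-Eb1) or 29 bases (H2-DMb1 and H2-DMb2) after the start of the core.

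Motifs were searched on both strands of all 32851 promoter windows in the table, and the letters and the 40-base limit on their distance were chosen with these sequences in view. The X1 core was found in 4 of the 8 windows of these genes and in 8.86% of all windows. The Y box was found in 6 of the 8 (H2-Aa, H2-DMb1, H2-DMb2, H2-Eb1, H2-Oa and H2-Ob) and in 7.82% of all windows. An X2 site, the sequence bound by CREB proteins, was matched only in H2-Aa among them, and in 1.79% of all windows. The X1 core with a Y box starting within 40 bases after it was found in 20 windows of the table (0.0609%), of which H2-DMb1, H2-DMb2, H2-Eb1 and H2-Ob are 4 and the neighbouring class II gene H2-Eb2 another. Neither of the 2 windows of H2-DMa, which belong to different annotated starts, held one of these letter strings. A match is a description of the letters in these windows and says nothing about binding in colon. On chromosome 17 the 8 H2 genes lie in the order H2-Oa, H2-DMa, H2-DMb2, H2-DMb1, H2-Ob, H2-Ab1, H2-Aa and H2-Eb1, with the class I peptide supply genes Psmb9, Tap1, Psmb8 and Tap2 between H2-DMb1 and H2-Ob, while Ciita and Cd74 lie on other chromosomes.

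Array values below are always given in replicate order, and those of the GPR43 KO group start with the library labelled GPR43 KO replicate 1. Differences are log2 fold changes of signal plus a pseudocount of 18.4, with the standard error (SE) and the Benjamini-Hochberg adjusted p of limma, fitted to all 6 arrays and adjusted over the 10916 genes tested. A gene was tested where its log2 level, averaged over the 6 arrays, exceeded 7.17, the 40th percentile of all genes.

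H2-Aa encodes the alpha chain of I-A, the class II molecule at the surface of C57BL/6 cells. Its kept probe set (1435290_x_at) gave signals of 3210.35 and 2854 in WT arrays, 3434 and 4953 in GPR41 KO arrays, and 5395 and 4231 in GPR43 KO arrays. All 4 KO arrays thus lay above both WT arrays, with GPR41 KO replicate 1 closest to WT. The mean of the WT arrays was 3032 ± 252 (SD, n = 2), that of the GPR41 KO arrays 4193 ± 1074, and that of the GPR43 KO arrays 4813 ± 823. The log2 fold change against WT was 0.44 ± 0.19 (SE) for GPR41 KO, with an adjusted p of 0.245, and 0.66 ± 0.19 for GPR43 KO, with an adjusted p of 0.100, and neither passed the threshold of 0.05. Without the library labelled GPR43 KO replicate 1 the latter was 0.48 (adjusted p = 0.370), and the former was 0.18 when GPR41 KO replicate 2 was left out and 0.71 when replicate 1 was. Such a difference in whole tissue does not tell more cells with class II apart from more class II RNA per cell, and this holds for every gene below.

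The other H2-Aa probe sets with a strong signal also had every KO array above both WT arrays. On 1438858_x_at the signals were 1395 and 1042 in WT arrays, 1877 and 2888 in GPR41 KO arrays, and 2884 and 2634 in GPR43 KO arrays. With every probe set fitted as a feature of its own (27060 tested), 1438858_x_at was the only one of 17 tested class II probe sets to pass, in GPR43 KO, with a log2 fold change of 1.18 ± 0.22 (limma, adjusted p = 0.0294). Of all 27060 probe sets tested, 503 passed in that comparison. In GPR43 KO replicate 2 alone this probe set stood 1.115 above the WT mean on the log2 scale, with no test. On 1452431_s_at the signals were 845 and 611 in WT arrays, 910 and 1426 in GPR41 KO arrays, and 1300.2 and 1018 in GPR43 KO arrays, again without overlap between WT and the KO arrays, and here the KO group means were nearly equal. The weak probe set 1443783_x_at ran from 7.62 in WT replicate 2 to 59.0 in WT replicate 1, so the WT arrays alone covered its whole range. In the naming of these arrays the ending _x_at marks probe sets with some probes that can match other sequences, and _s_at marks probe sets shared by several transcripts, so signals of related H2 genes may be mixed in them.

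H2-Ab1, the beta chain of I-A, had 3 probe sets that disagreed in their order of arrays. The kept one (1450648_s_at) gave 2069 and 744 in WT arrays, 3031 and 1996 in GPR41 KO arrays, and 4776 and 3729 in GPR43 KO arrays. Here the WT arrays were far apart, GPR41 KO overlapped WT, and both GPR43 KO arrays stood above all others. Log2 fold changes were 0.97 ± 0.40 (adjusted p = 0.227) for GPR41 KO and 1.75 ± 0.40 (adjusted p = 0.0503) for GPR43 KO, the latter just short of the threshold. Without WT replicate 1 these became 1.70 (adjusted p = 0.00239) and 2.47 (adjusted p = 0.000322), and without WT replicate 2 they were 0.25 and 1.02, so the size of the H2-Ab1 difference on this probe set rested on which WT array was used. Without the library labelled GPR43 KO replicate 1 the GPR43 KO value was 1.57 (adjusted p = 0.187).

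The 2 other H2-Ab1 probe sets differed from the kept one in their order of arrays. On 1451721_a_at the signals were 1048 and 885 in WT arrays, 1099 and 1783 in GPR41 KO arrays, and 1696 and 1309 in GPR43 KO arrays. On 1425477_x_at they were 446 and 384 in WT arrays, 538 and 1059 in GPR41 KO arrays, and 927 and 732 in GPR43 KO arrays. Both had every KO array above both WT arrays, and both were highest in GPR41 KO replicate 2, which on the kept probe set was the lowest of the KO arrays. The ratio of group means in GPR43 KO against WT was 3.02 on 1450648_s_at, 1.55 on 1451721_a_at and 2.00 on 1425477_x_at.

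H2-Eb1, the beta chain of I-E, had 1 probe set, with signals of 1637 and 1562 in WT arrays, 2113 and 2761 in GPR41 KO arrays, and 3119 and 2338 in GPR43 KO arrays. The 2 WT arrays were close together (mean 1599 ± 53.4, SD) and every KO array lay above them. Log2 fold changes were 0.59 ± 0.18 (adjusted p = 0.106) for GPR41 KO and 0.75 ± 0.18 (adjusted p = 0.0542) for GPR43 KO, and leaving out the library labelled GPR43 KO replicate 1 gave 0.54 (adjusted p = 0.246). With each array centred on its median, both passed (adjusted p = 0.0375 and 0.0274).

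Cd74, the invariant chain that accompanies class II to the endosome, rose in GPR43 KO and was the only tested member to pass the threshold in any comparison. Its signals were 4542 and 3866 in WT arrays, 5474 and 7103 in GPR41 KO arrays, and 8249.7 and 6324 in GPR43 KO arrays. Every KO array lay above both WT arrays. The rise in GPR43 KO was 0.78 ± 0.18 on the log2 scale (limma, adjusted p = 0.0463), from a mean of 4204 ± 478 (SD, n = 2) to 7287 ± 1362, a ratio of 1.73. In GPR41 KO the log2 fold change was 0.57 ± 0.18 (adjusted p = 0.115), with a mean of 6289 ± 1152.

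The Cd74 call in GPR43 KO was narrow. It was lost without WT replicate 2 (0.67, adjusted p = 0.144), either GPR41 KO array (0.78 in both cases, with adjusted p = 0.0529 for leaving out replicate 1 and 0.0510 for replicate 2), or either GPR43 KO array (0.59, adjusted p = 0.219 with the library labelled replicate 1 left out and 0.97, adjusted p = 0.0734 with replicate 2 left out). It was also lost with quantile normalization (0.76, adjusted p = 0.0563), no filter (adjusted p = 0.0679), a filter at the 60th percentile (adjusted p = 0.0569) or the mean over probe sets (adjusted p = 0.0645).

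**Figure D1:**
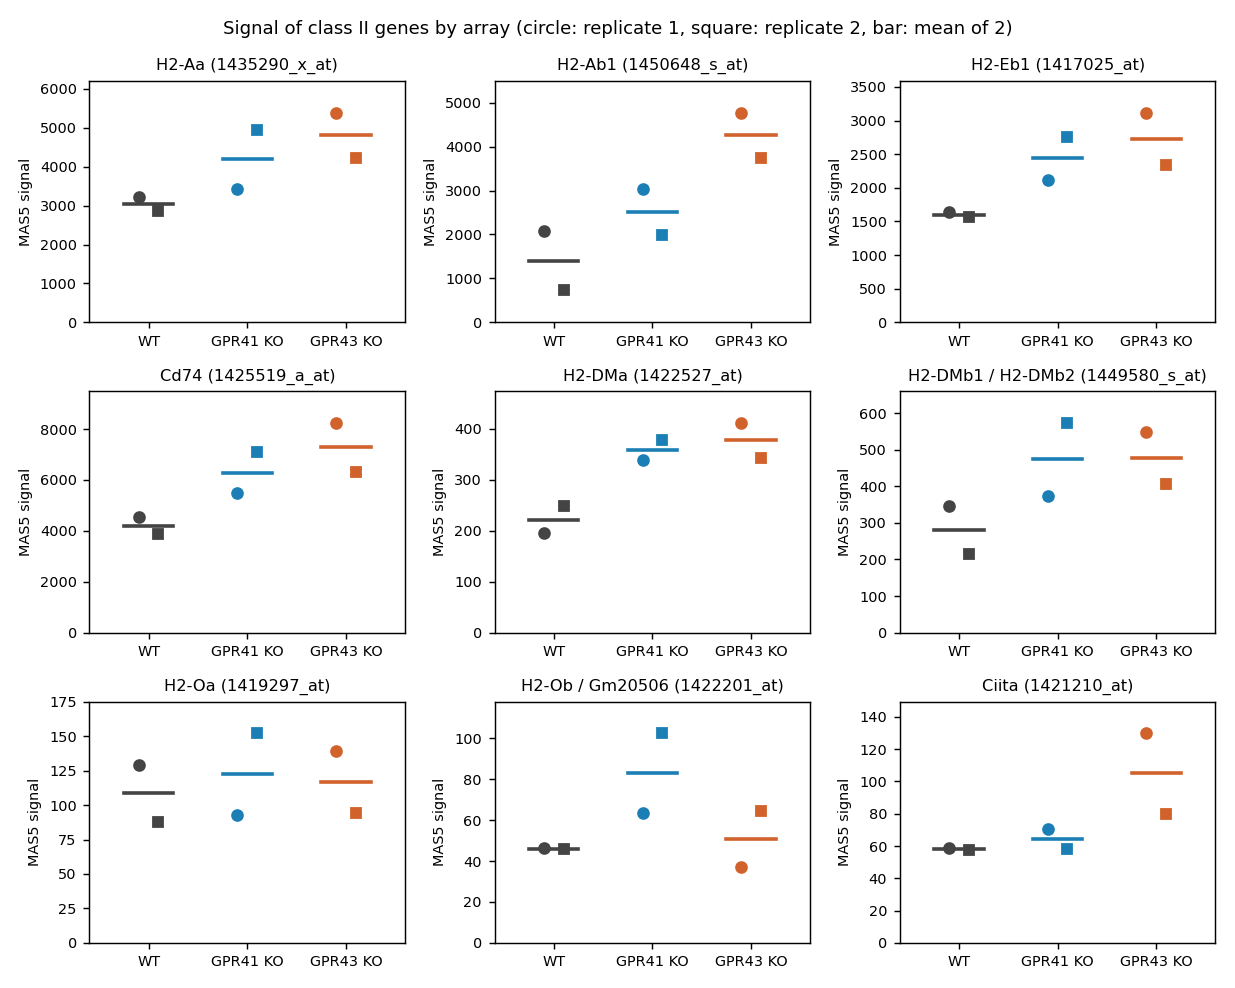
MAS5 signal (linear, from 0) of 9 class II probe sets in each array, by genotype, with circles for replicate 1, squares for replicate 2 and a bar for the mean of 2 arrays. For H2-Aa, H2-Eb1, Cd74, H2-DMa and the shared H2-DMb1 / H2-DMb2 probe set all 4 KO arrays lie above both WT arrays, while H2-Oa overlaps between all groups.

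Among the peptide-loading genes, H2-DMa, the alpha chain of the peptide editor H2-DM, gave 195 and 249 in WT arrays, 339 and 377 in GPR41 KO arrays, and 412 and 344 in GPR43 KO arrays on its kept probe set. The KO arrays did not overlap WT. The log2 fold change was 0.66 ± 0.22 (adjusted p = 0.135) for GPR41 KO and 0.72 ± 0.22 (adjusted p = 0.107) for GPR43 KO, and leaving out the library labelled GPR43 KO replicate 1 gave 0.60 (adjusted p = 0.366). The other H2-DMa probe set was weak, from 8.12 to 49.5, with its lowest value in GPR41 KO replicate 2 and its highest in the library labelled GPR43 KO replicate 1. Averaged over both probe sets, the values were 0.11 for GPR41 KO and 0.26 for GPR43 KO.

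The beta chains of H2-DM are encoded by the neighbouring genes H2-DMb1 and H2-DMb2, and 2 probe sets do not separate them. The stronger shared one (1449580_s_at) gave 347 and 215 in WT arrays, 374 and 573 in GPR41 KO arrays, and 547 and 406 in GPR43 KO arrays, without overlap between WT and KO. The other (1418638_at) gave 112 and 134 in WT arrays, 108 and 135 in GPR41 KO arrays, and 162 and 120 in GPR43 KO arrays, and its groups overlapped. Fitted as features of their own, the stronger one had a log2 fold change of 0.72 ± 0.29 (limma, adjusted p = 0.300) for GPR41 KO and 0.75 ± 0.29 (adjusted p = 0.283) for GPR43 KO. In GPR43 KO replicate 2 alone it stood 0.54 above the WT mean.

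H2-DMb2 by itself had 3 probe sets, and its kept one lay just below the filter (mean log2 level 7.15), so the gene was not tested. That probe set (1443687_x_at) gave 143 and 76.2 in WT arrays, 93.1 and 187 in GPR41 KO arrays, and 180.3 and 102 in GPR43 KO arrays. On 1419744_at the signals were 128 and 77.1 in WT arrays, 68.7 and 112 in GPR41 KO arrays, and 148 and 89.6 in GPR43 KO arrays. In both of these, 1 array of each group was about as high as the high arrays of the others, and the groups overlapped. The third, 1443686_at, gave 72.2 and 85.3 in WT arrays, 20.2 and 180.25 in GPR41 KO arrays, and 192 and 119 in GPR43 KO arrays, so GPR41 KO held both a value below WT and one above it.

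H2-Oa, the alpha chain of the H2-DM modulator H2-O, also lay just below the filter (mean log2 level 7.04). Its signals were 129 and 87.8 in WT arrays, 92.6 and 152 in GPR41 KO arrays, and 139.5 and 94.2 in GPR43 KO arrays. No group stood apart from another. H2-Ob, the beta chain, was weak: its own probe set ran from 2.82 in the library labelled GPR43 KO replicate 1 to 48.1 in GPR41 KO replicate 2, with 20.6 and 33.6 in WT. The probe set shared with Gm20506 gave 46.3 and 45.9 in WT arrays, 63.5 and 103 in GPR41 KO arrays, and 37.2 and 64.5 in GPR43 KO arrays, and its GPR43 KO arrays lay on either side of WT.

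Ciita was measured by 3 weak probe sets and was not tested (mean log2 level 6.51). On the strongest of them (1421210_at) the signals were 58.7 and 57.6 in WT arrays, 70.4 and 58.3 in GPR41 KO arrays, and 129.99 and 79.9 in GPR43 KO arrays. Both GPR43 KO arrays were thus above all others on this probe set, and GPR41 KO overlapped WT. On 1421211_a_at the signals were 12.1 and 9.0 in WT arrays, 5.10 and 41.9 in GPR41 KO arrays, and 74.1 and 39.4 in GPR43 KO arrays. This probe set also had both GPR43 KO arrays above WT, with GPR41 KO replicate 2 above GPR43 KO replicate 2. The last one (1447075_at) stayed between 4.43 and 14.2 in all arrays. At this level a MAS5 signal is dominated by background, so these Ciita values carry no test.

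**Figure D2:**
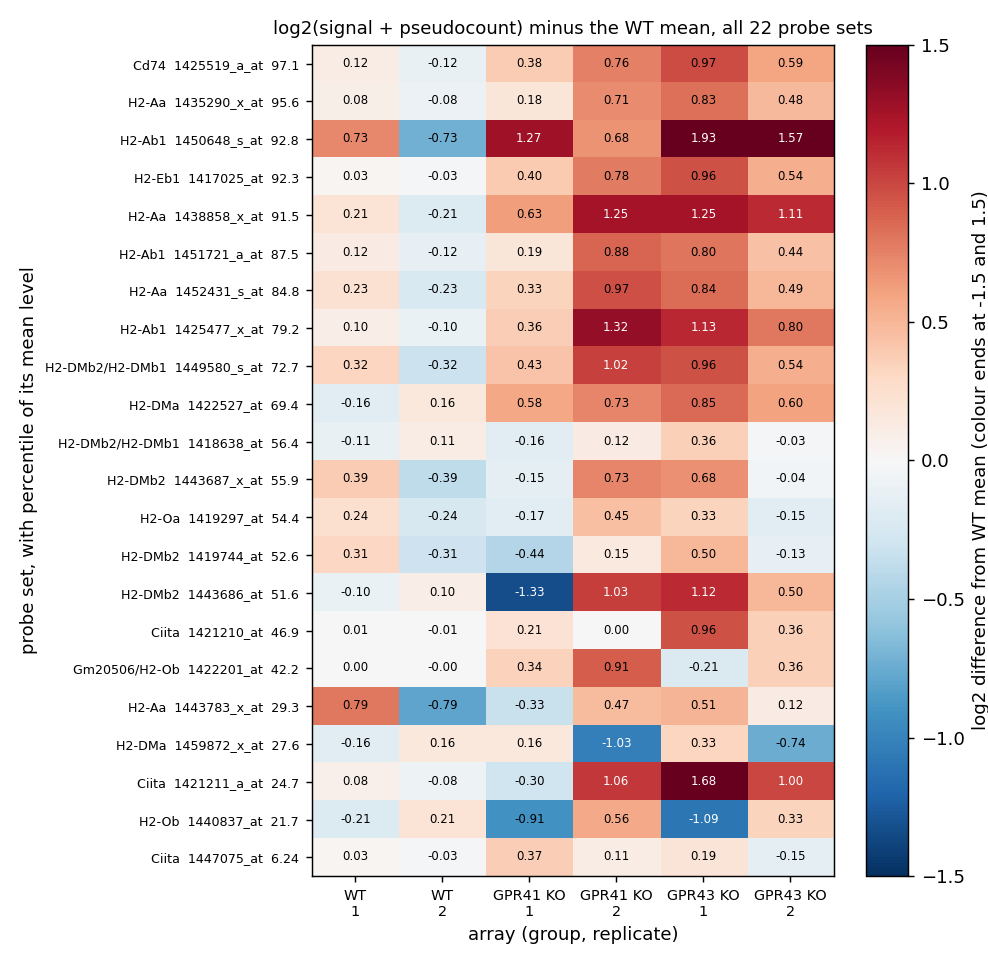
Log2 of signal plus pseudocount minus the mean of the 2 WT arrays, for all 22 class II probe sets (rows, from the highest to the lowest mean level, with the percentile of that level among all probe sets) in the 6 arrays (columns). Red is above and blue below the WT mean, and the upper 10 probe sets are positive in all 4 KO arrays, while those below are mixed in sign except 1421210_at of Ciita.

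The class II genes were read against the other genes of the array one comparison at a time. Both KO groups were compared with the same 2 WT arrays, so the first 2 comparisons are not independent. Of the 9 genes with a probe set of their own, 5 passed the filter (H2-Aa, H2-Ab1, H2-Eb1, H2-DMa and Cd74), each with a log2 level above it in every array (the lowest was 7.74, for H2-DMa). H2-DMb2, H2-Oa, Ciita and H2-Ob did not pass.

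In GPR41 KO against WT, 0 of the 5 tested class II genes passed the adjusted threshold in limma, against 4.99% of all genes tested (545 of 10916). At an unadjusted p under 0.05 there were 5 of 5, all higher, against 9.22% of all genes tested in that direction. The arrays did not overlap in 4 of the 5 (all but H2-Ab1), which holds in the same direction for 24.6% of all genes. The median log2 fold change was 0.59 (range 0.44 to 0.97), and over all genes tested it was 0.00057. Of all called genes 37.6% were higher, and 48.1% with each array centred on its median. Under that centring H2-Eb1 (0.68, adjusted p = 0.0375) and Cd74 (0.67, adjusted p = 0.0400) passed. The centring also raised the median log2 fold change of all genes tested to 0.09, and 653 of the 10916 genes passed.

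In GPR43 KO against WT, 1 of the 5 (Cd74) passed the adjusted threshold, against 3.96% of all genes tested (432 of 10916). All 5 were higher at an unadjusted p under 0.05, against 10.9% of all genes tested, and in all 5 the arrays did not overlap, against 27.7%. The median log2 fold change was 0.75 (range 0.66 to 1.75), against 0.03 over all genes. Without the library labelled GPR43 KO replicate 1 none of the 5 passed, and their median was 0.59. Centring each array on its median gave 3 calls, with H2-Ab1 at 1.75 (adjusted p = 0.0101) and H2-Eb1 at 0.75 (adjusted p = 0.0274) beside Cd74. Under that centring 498 of the 10916 genes tested passed.

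Between the KO groups, 0 of the 5 class II genes and 0 (0%) of the 10916 genes passed in limma, with 596 genes (5.46%) but none of the 5 at an unadjusted p under 0.05. The differences of GPR43 KO from GPR41 KO were 0.21 for H2-Aa (95% interval -0.22 to 0.64), 0.77 for H2-Ab1 (-0.14 to 1.69), 0.16 for H2-Eb1 (-0.24 to 0.56), 0.21 for Cd74 (-0.19 to 0.61) and 0.07 for H2-DMa (-0.42 to 0.56). H2-Ab1 was the only one of the 5 whose arrays did not overlap between the KO groups, which holds in that direction for 23.1% of all genes. The intervals leave room for differences between the KO groups in either direction for each of the 5. Without GPR41 KO replicate 1 the difference was -0.05 for H2-Aa, 1.07 for H2-Ab1, -0.03 for H2-Eb1, 0.024 for Cd74 and -0.0043 for H2-DMa. Leaving out the library labelled GPR43 KO replicate 1 gave 0.037 for H2-Aa, 0.60 for H2-Ab1, -0.05 for H2-Eb1, 0.020 for Cd74 and -0.06 for H2-DMa. With replicate 2 of either KO genotype left out, all 5 differences were positive, and those of H2-Aa and Cd74 were 0.39 to 0.47.

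**Figure D3:**
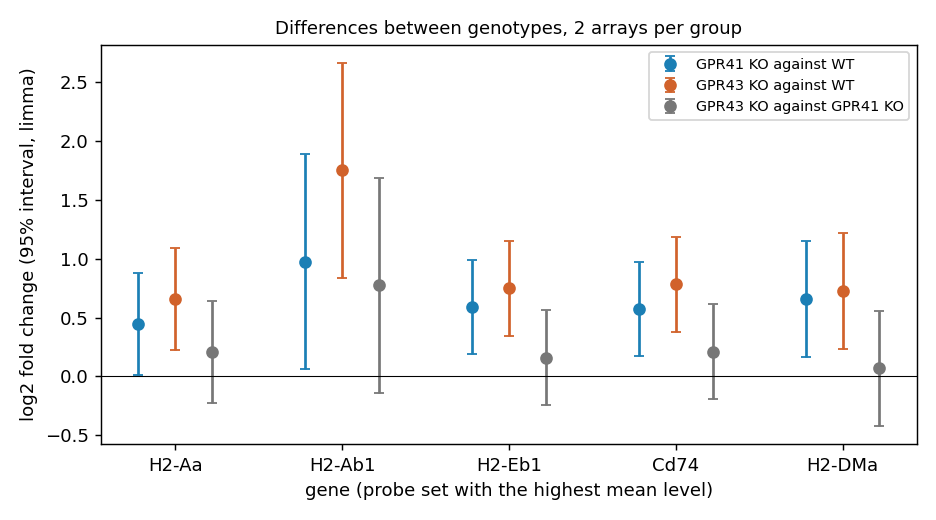
Log2 fold change (points) with its 95% interval from the limma fit (bars) for the 5 tested class II genes in 3 comparisons of 2 arrays per group. All intervals against WT lie above 0 before adjustment over genes, and all 5 intervals of GPR43 KO against GPR41 KO include 0.

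On their kept probe sets, 4 of the 5 tested class II genes also shared an order of the KO arrays. Strong H2-Aa and H2-Ab1 probe sets other than the kept ones were instead highest in GPR41 KO replicate 2. So was the stronger probe set shared by H2-DMb1 and H2-DMb2. In 9 of the 22 probe sets all 4 KO arrays lay above both WT arrays (10.3% of the 45037 non-control probe sets), and in 0 of 22 all 4 lay below (10.8%). Both GPR41 KO arrays lay above WT in 11 of 22 (18.8% of all) and both GPR43 KO arrays in 13 (21.3%). Among the 5 tested genes, all 4 KO arrays lay above WT in 4 (all but H2-Ab1), against 17.1% of all genes tested. The highest array was the library labelled GPR43 KO replicate 1 in 11 of 22 (20.1% of all) and GPR41 KO replicate 2 in 9 (15.8%), and the lowest was WT replicate 2 in 13 (20.3%). Several of the 22 probe sets measure the same gene, so they are not independent of each other. In H2-Aa, H2-Eb1, H2-DMa and Cd74, 4 of the 5 tested genes, the KO arrays stood in the same order. It ran from GPR41 KO replicate 1 over GPR43 KO replicate 2 and GPR41 KO replicate 2 to the library labelled GPR43 KO replicate 1. That order was read off these same genes, so finding it in 4 of the 5 was fixed in advance. Over all genes tested it was found in 6.13%, which is given as a description only. The order thus ran across the 2 KO genotypes: in each genotype 1 array was high and 1 low. Averaged over H2-Aa, H2-Ab1, H2-Eb1 and Cd74, the levels relative to the WT mean were 1.18 and 0.847 in WT arrays, 1.47 and 1.66 in GPR41 KO arrays, and 2.25 and 1.74 in GPR43 KO arrays.

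The RNA of genes whose proteins bind the X and Y boxes, or act there with CIITA, did not share this profile. Of 10 tested genes of the promoter complex none passed in GPR41 KO, and 1 fell in GPR43 KO, with median log2 fold changes of 0.08 and 0.07. The one that fell was Nfyb, a subunit of the Y box factor NF-Y, with signals of 940 and 795 in WT arrays, 902 and 880 in GPR41 KO arrays, and 549 and 496 in GPR43 KO arrays. Its log2 fold change was -0.71 ± 0.15 (adjusted p = 0.0414), and the call was lost without any 1 of the 6 arrays (adjusted p = 0.0596 to 0.226) and with the mean over its probe sets (-0.36, adjusted p = 0.236) or no filter (adjusted p = 0.0605). Rfxap, a subunit of the X box factor RFX, gave 591 and 701 in WT arrays, 559 and 488 in GPR41 KO arrays, and 453 and 437 in GPR43 KO arrays. Nfyc, another NF-Y subunit, gave 1706 and 1334 in WT arrays, 1602 and 1566 in GPR41 KO arrays, and 1863 and 2117 in GPR43 KO arrays, and Crebbp, a histone acetyltransferase that CIITA recruits, lay between 862 and 1112. Here and below, calls are to be read against the shares of all genes given above (4.99% and 3.96%).

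Interferon gamma is the main inducer of Ciita, and of the genes that carry its signal 7 were tested and none passed in either KO group, with medians of 0.04 and 0.01. Irf1, a transcription factor induced by the interferon and needed for Ciita induction, gave 2259.5 and 2745 in WT arrays, 3380.5 and 4343 in GPR41 KO arrays, and 3888 and 3160.15 in GPR43 KO arrays. All its KO arrays lay above WT, with GPR41 KO replicate 2 the highest of them and GPR43 KO replicate 2 the lowest. Its log2 fold change was 0.62 ± 0.17 (adjusted p = 0.0818) for GPR41 KO, where it passed under median centring (0.71, adjusted p = 0.0281), and 0.49 ± 0.17 (adjusted p = 0.157) for GPR43 KO. Ifngr1, a chain of the interferon receptor, gave 3854 and 4205 in WT arrays, 3390.4 and 3243 in GPR41 KO arrays, and 2789.85 and 3174 in GPR43 KO arrays, and the kinase gene Jak2 lay between 772 and 1047. Irf8, a transcription factor of the same family as Irf1, lay between 1536 and 1964.

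Of the interferon gamma target genes, 9 were tested and 1, Ido1, rose in each KO group. Ido1 encodes a tryptophan-degrading enzyme, and its signals were 122 and 105 in WT arrays, 368 and 394 in GPR41 KO arrays, and 245 and 321 in GPR43 KO arrays. The log2 fold change was 1.60 ± 0.24 (adjusted p = 0.00625) for GPR41 KO and 1.18 ± 0.24 (adjusted p = 0.0291) for GPR43 KO. In GPR41 KO the call did not hold with replicate 1 of that genotype left out (1.65, adjusted p = 0.0503), nor with replicate 2 left out (1.56, adjusted p = 0.0528). In GPR43 KO it was lost without any 1 array other than WT replicate 1 (adjusted p = 0.0582 to 0.192) and with no filter (adjusted p = 0.0606).

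The other 8 tested targets did not pass, and they did not follow the order of arrays that H2-Aa, H2-Eb1, H2-DMa and Cd74 shared. Igtp, an interferon-induced GTPase of vacuole defence, gave 564 and 819 in WT arrays, 741 and 2133 in GPR41 KO arrays, and 717 and 595 in GPR43 KO arrays. Its relatives Irgm2 and Iigp1 gave 1234 and 1047 in GPR41 KO replicate 2, and between 252 and 702 in Iigp1 and between 279 and 638 in Irgm2 elsewhere. All 3 were thus high in GPR41 KO replicate 2, which was the top array for 9 of the 12 target genes with a probe set. In the median over the 9 tested targets that array stood at 1.07 above the WT mean (log2) and the library labelled GPR43 KO replicate 1 at -0.15, while the class II medians of these arrays were 0.73 and 0.96. The part of interferon exposure in the class II values was not tested.

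Genes of class I presentation, which include the direct neighbours of the class II genes on chromosome 17, shared their top array with the interferon targets. Of 14 tested none passed in either KO group, with medians of 0.28 and 0.07. GPR41 KO replicate 2 was the highest array for 12 of the 15 genes with a probe set. Psmb8, a subunit of the immunoproteasome, gave 1284 and 1719 in WT arrays, 1181 and 3512 in GPR41 KO arrays, and 1482 and 909 in GPR43 KO arrays. Tapbp, which loads peptides on class I, gave 4572 and 4751 in WT arrays, 5131.5 and 6829 in GPR41 KO arrays, and 4542 and 5188 in GPR43 KO arrays. H2-K1, a class I heavy chain, ran from 22388 in WT replicate 1 to 36002 in GPR41 KO replicate 2, and Pdia3, a chaperone of the loading complex, from 14143 in WT replicate 2 to 18149 in GPR41 KO replicate 1.

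Genes of class II peptide processing, mostly proteases that prepare peptides or cut the invariant chain, fell or did not pass. Of 9 tested genes, Lgmn fell in GPR41 KO, and Lgmn and Ctsl fell in GPR43 KO, with list medians of -0.01 and -0.26. Lgmn, the asparagine endopeptidase legumain, gave 3484 and 4551 in WT arrays, 1519 and 1683 in GPR41 KO arrays, and 1763 and 1859 in GPR43 KO arrays. On the log2 scale it fell by 1.31 ± 0.15 (adjusted p = 0.00220) for GPR41 KO and by 1.13 ± 0.15 (adjusted p = 0.00539) for GPR43 KO, where leaving out the library labelled replicate 1 gave -1.09 (adjusted p = 0.0344). Ctsl, cathepsin L, gave 8143 and 10628 in WT arrays, 5971 and 6336 in GPR41 KO arrays, and 5696 and 5932 in GPR43 KO arrays, and fell by 0.68 ± 0.14 in GPR43 KO (adjusted p = 0.0372), a call lost without any 1 array other than WT replicate 1 (adjusted p = 0.0695 to 0.168), with no filter (adjusted p = 0.0578) and with the mean over probe sets (adjusted p = 0.0660). Ctse, cathepsin E, gave 1243 and 946 in WT arrays, 2115 and 1619 in GPR41 KO arrays, and 1574 and 2548 in GPR43 KO arrays, all KO arrays above WT without passing. Ctss, which makes the last cuts of the invariant chain in dendritic and B cells, ran from 7336 in GPR43 KO replicate 2 to 11234 in GPR41 KO replicate 2, and Sppl2a, which cleaves the remaining membrane fragment, from 2597 in GPR43 KO replicate 2 to 4489.9 in GPR41 KO replicate 2, level with WT replicate 1.

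**Figure D4:**
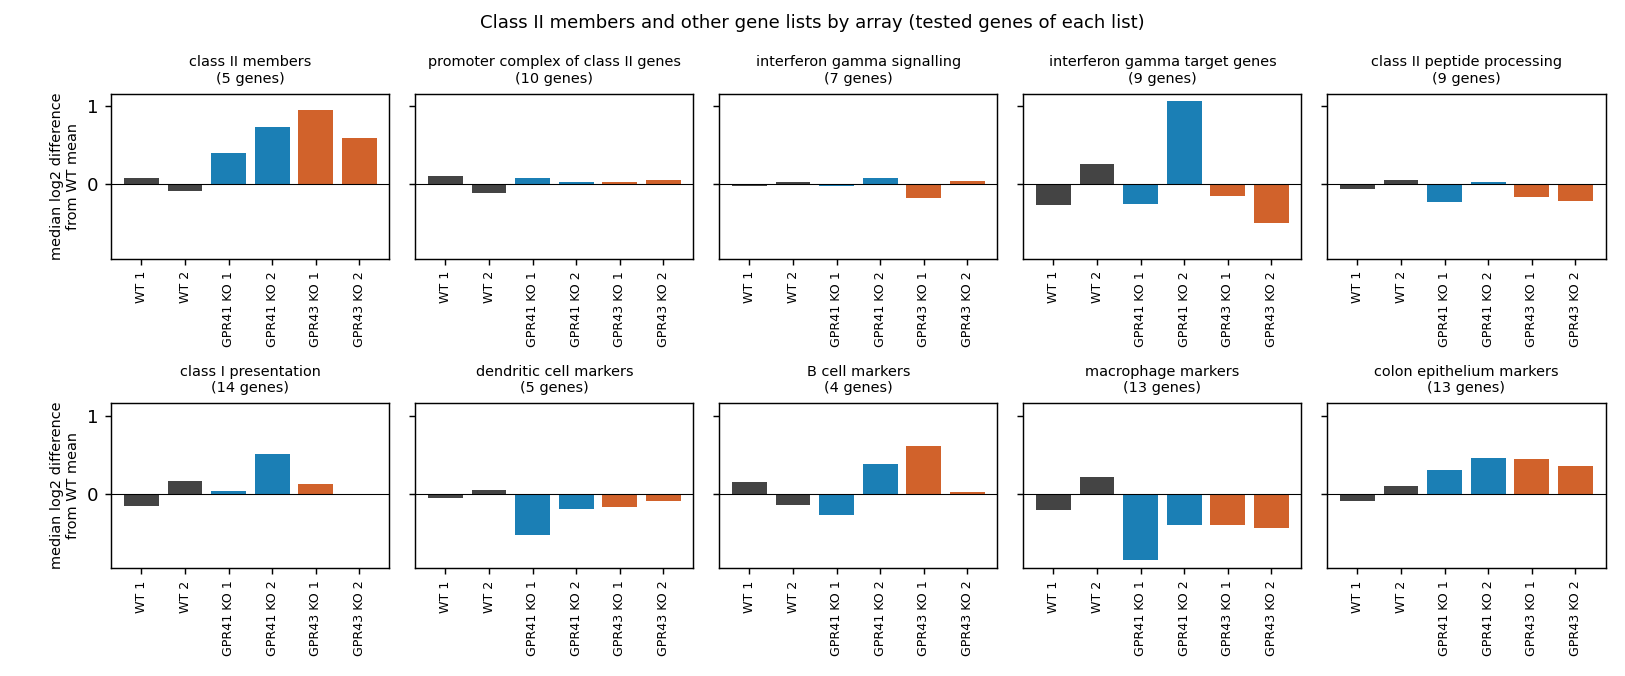
Median log2 difference from the WT mean over the tested genes of a list, by array (gray WT, blue GPR41 KO, orange the arrays labelled GPR43 KO). Lists with fewer than 4 tested genes are left out. Neutrophil markers, with medians of -4.37 to -5.31 in the KO arrays, are also not shown. The class II genes stand between 0.40 and 0.96 in the 4 KO arrays, and the interferon gamma targets are highest in GPR41 KO replicate 2 (1.07). Dendritic cell and macrophage markers are below 0 and colon epithelium markers above 0 in every KO array.

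In GPR43 KO replicate 2 alone the list medians were 0.05 for the promoter complex and for interferon gamma signalling, -0.49 for the interferon targets, -0.02 for class I presentation and -0.22 for class II peptide processing. They were -0.09 for dendritic cell, -0.44 for macrophage and 0.35 for colon epithelium markers.

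Markers of the cells that carry class II were set beside these values. B cell markers had 4 tested genes of 12 with a probe set, and none passed in either KO group, with medians of -0.02 and 0.39. The GPR43 KO median was 0.61 in the library labelled replicate 1 and 0.03 in replicate 2. Ms4a1 (CD20) gave 154 and 90.9 in WT arrays, 112 and 258 in GPR41 KO arrays, and 269 and 119 in GPR43 KO arrays, and Fcmr, the IgM Fc receptor, gave 118 and 101 in WT arrays, 86.8 and 176 in GPR41 KO arrays, and 198 and 143 in GPR43 KO arrays. Cd79b, a chain of the B cell receptor complex, gave 208 and 153 in WT arrays, 115 and 201 in GPR41 KO arrays, and 252 and 187 in GPR43 KO arrays. In these 3, GPR41 KO replicate 2 and the library labelled GPR43 KO replicate 1 were the 2 highest of the KO arrays. The same held for H2-Aa, H2-Eb1, H2-DMa and Cd74. In none of the 3 B cell markers did GPR41 KO replicate 1 exceed WT replicate 1. Spib, a transcription factor of B cells, gave 294 and 263 in WT and 197 to 229 in the KO arrays. The summed signal of the 12 genes was 1433 and 1211 in WT arrays, 1145 and 1571 in GPR41 KO arrays, and 1689 and 1246 in GPR43 KO arrays, and no marker was at 0. The part of B cells in the class II values was not tested.

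Dendritic cell markers had 5 tested genes of 15 with a probe set, none of which passed, with medians of -0.37 and -0.31. Itgax (CD11c) gave 207 and 225 in WT arrays, 133 and 199 in GPR41 KO arrays, and 191 and 149 in GPR43 KO arrays, and Batf3, a transcription factor of cross-presenting dendritic cells, gave 192 and 174 in WT arrays, 77.4 and 158 in GPR41 KO arrays, and 90.5 and 143 in GPR43 KO arrays. Every KO array was thus below WT in Itgax and Batf3 (an order found in 10.8% of all non-control probe sets). The other 3 overlapped WT in at least 1 KO group: Cd83, a maturation marker, gave 324 and 255 in WT arrays and 210.5 to 434 in KO arrays, Sirpa (CD172a) 372 and 441 against 263 to 396, and Fscn1, an actin-bundling protein, 356 and 416 against 299 to 536. Of the 15 genes with a probe set, tested or not, 3 had every KO array below both WT arrays and 1 had every KO array above them. The summed signal of the 15 genes was 2167 and 2049 in WT arrays, 1556 and 1986 in GPR41 KO arrays, and 2221 and 2359 in GPR43 KO arrays.

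Macrophage markers had 13 tested genes, of which 5 fell in each KO group and none rose, with medians of -0.63 and -0.42. The 5 were Cd14, Itgam (CD11b), Lyz2, Cd68 and Fcgr1, several of which monocytes and neutrophils also express. Cd14 gave 6174 and 12074 in WT arrays, 1762 and 1746 in GPR41 KO arrays, and 2320 and 1904 in GPR43 KO arrays, with log2 fold changes of -2.29 ± 0.26 (adjusted p = 0.00220) and -2.03 ± 0.26 (adjusted p = 0.00497). Itgam fell by 2.46 for GPR41 KO and by 2.07 for GPR43 KO, Lyz2 by 1.21 and 0.87, Cd68 by 1.84 and 1.48, and Fcgr1 by 1.52 and 1.5. When the library labelled GPR43 KO replicate 1 was left out, the GPR43 KO values of Cd14 and Itgam were -2.17 (adjusted p = 0.0162) and -2.20 (adjusted p = 0.0379). Without 1 of the arrays some of these calls were lost: for Lyz2 and Cd68 in GPR41 KO without GPR41 KO replicate 1 (adjusted p = 0.0501 and 0.0503), for GPR43 KO when the library labelled replicate 1 was left out (0.0951 and 0.0616) or replicate 2 left out (0.166 and 0.123), and for Lyz2 also without WT replicate 2 (0.0855). The Itgam call in GPR43 KO was lost without GPR43 KO replicate 2 (adjusted p = 0.0725), and the Fcgr1 calls without WT replicate 2 (0.184 and 0.187) or either array of the group tested (0.109 to 0.135), and in GPR43 KO also without either GPR41 KO array (0.0558 and 0.0575). The Fcgr1 calls were also lost with no filter (0.0548 and 0.0649), and in GPR43 KO with the mean over probe sets (0.0535). C1qa, a complement gene of tissue macrophages, gave 1840 and 2893 in WT arrays, 1686 and 2017 in GPR41 KO arrays, and 2249 and 2127 in GPR43 KO arrays. The summed signal of the 14 markers was 29187 and 43607 in WT and 14397 to 20920.4 in the KO arrays, and its part in the class II values was not tested.

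Colon epithelium markers had 13 tested genes, all with a positive log2 fold change in both KO groups (medians 0.37 and 0.36), against 50.1% and 54.0% of all genes tested. Aqp8, a water channel of surface colonocytes, rose in both KO groups, and Vil1, a protein of the microvilli, rose in GPR41 KO. Aqp8 gave 2840.4 and 1106 in WT arrays, 7725 and 6871 in GPR41 KO arrays, and 5394 and 7516 in GPR43 KO arrays, with log2 fold changes of 2.03 ± 0.36 (adjusted p = 0.0145) and 1.83 ± 0.36 (adjusted p = 0.0284). The GPR41 KO call was lost when replicate 1 of that genotype was left out (1.94, adjusted p = 0.101) or replicate 2 (2.11, adjusted p = 0.0678), and the GPR43 KO call also when the library labelled GPR43 KO replicate 1 was left out (2.07, adjusted p = 0.0582) or its partner was (1.59, adjusted p = 0.168). Vil1 gave 7377 and 6144 in WT arrays, 10628 and 9604 in GPR41 KO arrays, and 8339 and 8593 in GPR43 KO arrays, with 0.58 ± 0.13 in GPR41 KO (adjusted p = 0.0398), a call lost without any 1 array other than WT replicate 1 (adjusted p = 0.0729 to 0.242) and with no filter (adjusted p = 0.0641). The epithelial medians by array were 0.31 and 0.45 in GPR41 KO and 0.44 and 0.35 in GPR43 KO, and the class II medians in the same arrays were 0.40, 0.73, 0.96 and 0.59. Epithelial and class II values were thus both above WT in every KO array, and the part of the epithelial share of the tissue in the class II values was not tested.

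Outside these lists, the genes whose levels followed the mean profile of H2-Aa, H2-Ab1, H2-Eb1 and Cd74 most closely were searched among 772 tested genes with an SD of at least 0.5 (log2) over the 6 arrays. The 8 highest Pearson correlations over 6 arrays were those of Sema6c (0.972), 9130208D14Rik (0.960), Cys1 (0.959), Clps (0.948), Hhip (0.944), Gsdmc2 (0.943), Aldh3b2 (0.939) and Ank3 (0.933). Over 6 arrays of 3 groups such values are a description and carry no p. Sema6c, a semaphorin, gave 92.8 and 71.4 in WT arrays, 134 and 205 in GPR41 KO arrays, and 261 and 195 in GPR43 KO arrays, in the same order of KO arrays as Cd74. Gsdmc2, a gasdermin of intestinal epithelium, gave 2129 and 1537 in WT arrays, 5067 and 4305 in GPR41 KO arrays, and 6703 and 4023 in GPR43 KO arrays. Clps, the cofactor of pancreatic lipase, gave 1123 and 561 in WT arrays, 1889.8 and 1449 in GPR41 KO arrays, and 2571 and 1633 in GPR43 KO arrays.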

How the data were processed

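Total RNA of colon (2 µg per sample) was labelled with biotin and hybridised to 1 array per sample, per the labels. The deposited values are a linear intensity per probe set, made by the authors with MAS5 per the submitters' processing notes, already scaled to the same trimmed mean (lowest and highest 2% left out), with the version not stated. Probe sets were named with the platform annotation: 34958 had 1 symbol, 932 several and 9211 none, and 64 controls were left out. The probe set with the highest mean log2 level stood for a gene (18193 genes, 10916 tested). The fit had 1 mean per group for 3 groups, 2 arrays each (limma 3.58.1, R 4.3.3, eBayes with intensity trend, two-sided), and eBayes raised the 3 residual degrees of freedom to 8.71. The procedure was run on simulated data with independent errors for each gene. Those data held no array effects shared by genes and no library that goes against its label, so the run does not cover these. The number of arrays limits the precision.

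The class II genes and all gene lists were chosen with earlier results of these data known. Named outside the class II genes were up to 4 tested genes per list with the smallest p, genes in counts of 5 or fewer, and the 8 genes most like the class II profile, while Ctss and C1qa were named after their values were seen. Weak signals are dominated by background, and the pseudocount of 18.4 (20th percentile) draws them together. Alternatives changed the pseudocount, scaling, filter, probe set rule and block, and left out each array.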

Additional observations from a re-analysis of the deposited data

How the results depend on the processing

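Against WT, the log2 fold changes of H2-Aa, H2-Ab1, H2-Eb1, H2-DMa and Cd74 were positive in every alternative with a value for the gene (H2-DMa did not pass the filter at the 60th percentile, and fitting every probe set gives no value per gene). With 1 array left out, those in GPR41 KO ranged from 0.18 to 0.71 for H2-Aa, 0.40 to 0.78 for H2-Eb1, 0.49 to 0.82 for H2-DMa and 0.38 to 0.76 for Cd74. The number of class II genes passing in GPR41 KO (0 as reported) was 2 with median centring and ranged from 0 to 1 with 1 array left out. In GPR43 KO (1 as reported) it was 2 with a pseudocount of 4 times the 20th percentile (H2-Ab1 at adjusted p = 0.0475), 3 with median centring, 0 with quantile normalization, no filter, a filter at the 60th percentile or the mean over probe sets, and 0 to 2 with 1 array left out. The number of all genes passing was 335 of 7277 in GPR41 KO and 280 of 7277 in GPR43 KO with the filter at the 60th percentile, where fewer genes were tested. With median centring it was 653 of 10916 in GPR41 KO and 498 of 10916 in GPR43 KO. With 1 array left out it ranged from 209 to 880 in GPR41 KO (highest without WT replicate 1, lowest without GPR41 KO replicate 1) and from 139 to 752 in GPR43 KO (highest without WT replicate 1, lowest without GPR43 KO replicate 2). Where that left a group with 1 array, the lone array was assumed to vary like the other groups. Between the KO groups, 1 feature passed with every probe set as a feature and 0 to 3 genes with 1 array left out. With 1 array left out, H2-Aa there ranged from -0.052 (GPR41 KO replicate 1 left out) to 0.47, H2-Eb1 from -0.046 (the library labelled GPR43 KO replicate 1 left out; -0.031 with GPR41 KO replicate 1 left out) to 0.37, and H2-DMa from -0.056 (the library labelled GPR43 KO replicate 1 left out; -0.0043 with GPR41 KO replicate 1 left out) to 0.19, and H2-DMa was -0.026 with median centring. The cause was not tested. The labels do not say that replicate numbers pair the arrays. Deviations of same-numbered arrays correlated at 0.107 (WT and GPR41 KO), -0.271 (WT and GPR43 KO) and -0.0537 (GPR41 KO and GPR43 KO). With 1 difference between replicates per group, these values cannot show whether the arrays were paired. With the replicate block 401 genes passed in GPR41 KO and 295 in GPR43 KO, and among class II genes 0 and 1, the one in GPR43 KO being H2-Ab1 (1.75, adjusted p = 0.0123) in place of Cd74 (0.78, adjusted p = 0.0903). Nfyb, Ido1, Ctsl and Vil1 also lost calls under the block (Ido1 and Ctsl in GPR43 KO).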

Other observations

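Of a list of 5 other class II region genes, which left out Psmb9, Tap1, Psmb8 and Tap2, 2 were tested. H2-Ea, the I-E alpha chain gene that C57BL/6 mice do not express as protein, had signals of 251 and 101 in WT arrays, 146 and 189 in GPR41 KO arrays and 273 and 68.2 in GPR43 KO arrays (the library labelled replicate 1 first), so the arrays of one group were as far apart as those of different groups. Btnl2, a butyrophilin-like gene next to the class II genes, gave 129 and 166 in WT arrays, 124 and 198 in GPR41 KO arrays, and 188 and 182 in GPR43 KO arrays. Neither passed the threshold in any of the 3 comparisons. Co-stimulation and helper T cell genes were mostly below the filter. Of 7 co-stimulation genes 1 was tested (Icosl, 197 and 240 in WT arrays, 256 and 242 in GPR41 KO arrays, 256 and 187 in GPR43 KO arrays). Of 9 helper T cell genes with a probe set 1 was tested (Cd3g, 139.5 and 127 in WT arrays, 113 and 201 in GPR41 KO arrays, 162 and 145 in GPR43 KO arrays). Neither Icosl nor Cd3g passed.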
